A study of Homo sapiens with 43 samples.

Results

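The comparison described here asks how far cells stimulated with interferon gamma (IFNg) still raise the cytokine's target genes when the BAF chromatin remodelling complexes have been inhibited beforehand. It takes 4 of the 43 RNA-seq libraries of the series, all from GM12878, an Epstein-Barr virus-transformed human B lymphoblastoid line grown in culture. In 2 libraries (BRM014+IFNg) the cells received the inhibitor BRM014 at 10 µM for 30 min and then IFNg at 100 ng/mL for 6 h. In the other 2 (DMSO+IFNg) the cells received the solvent dimethyl sulfoxide (DMSO) for the same 30 min and then the same IFNg. The libraries were chosen by these labels alone. They belong to a pretreatment experiment of 24 libraries in which BRM014 or DMSO preceded IFNg, the glucocorticoid dexamethasone (Dex, 500 nM) or vehicle for 1 h or 6 h, with 2 libraries a group. From it, BRM014+vehicle and DMSO+vehicle at 6 h, BRM014+Dex and DMSO+Dex at 6 h, and BRM014+IFNg and DMSO+IFNg at 1 h were set beside the comparison. A separate panel of GM12878 libraries without inhibitor (2 with IFNg, 2 with DMSO and 2 with phosphate-buffered saline, all 6 h) was used to define genes that IFNg raises. The labels number the replicates but do not say whether they were separate cultures, so p-values measure the spread between these libraries, which may be technical. GM12878 is 1 line from 1 person, and the inhibitor was used at 1 dose.

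IFNg binds the receptor IFNGR1/IFNGR2, whose associated kinases JAK1 and JAK2 phosphorylate transcription factors of the STAT family. Their dimers bind the gamma-activated site (GAS) in promoters and enhancers. They raise a first wave of genes, among them the transcription factor IRF1, which binds the interferon-stimulated response element (ISRE) and drives a later wave together with them. BAF complexes slide and evict nucleosomes with the energy of ATP, through either the SMARCA4 (BRG1) or the SMARCA2 (BRM) ATPase, and so keep many enhancers open. BRM014 is a small molecule that blocks both ATPases. It acts on protein activity, so transcript levels of its targets are no check of the inhibition.

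The 4 libraries held 12.9 to 17.3 M counts. Levels are given below in CPM, counts divided by the library total in M after scaling between libraries by the TMM method. Tests are edgeR's quasi-likelihood test on all 24 pretreatment libraries, with Benjamini-Hochberg adjustment over 15183 genes, and a gene is said to have risen or fallen at an adjusted p below 0.05. Each log2 change is BRM014+IFNg minus DMSO+IFNg, with its standard error. In BRM014+IFNg cells 2275 genes (15% of those tested) rose and 2834 (18.7%) fell, with 1.46% rising and 4.64% falling over 2-fold, and the median log2 change of all genes was 0.01. These shares are the background for the counts of each gene list below. Every marker of the B lymphoblastoid line that was listed was detected, and the 10 markers summed to 5153 and 5371 CPM in BRM014+IFNg and to 6478 and 6446 CPM in DMSO+IFNg; 9 of them fell and HLA-DRA did not pass. T and NK cell markers summed to at most 10.5 CPM and hepatocyte markers to at most 2.68 CPM in any of the 4 libraries, with CD3D, CD3G and NCAM1, and APOA2, FGA, FGG, TTR and AFP, at 0 in all of them. The 10 monocyte and neutrophil markers summed to 27.3 and 29.2 CPM in BRM014+IFNg and to 39.2 and 55.2 CPM in DMSO+IFNg, mostly from VCAN, while S100A8, FCN1, MPO and ELANE were at 0. In these bulk libraries, fewer responding cells and less RNA per cell cannot be told apart.

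One of the 4 libraries stood apart from its partner. DMSO+IFNg replicate 1 lay closer to the BRM014 libraries than replicate 2 did. Of 431 genes that BRM014 lowered over 2-fold in vehicle cells, 360 had a level in DMSO+IFNg replicate 1 between those of replicate 2 and of BRM014+IFNg, and the median log2 gap of replicate 1 to replicate 2 was −0.22. In 5 other groups the same gap lay between −0.03 and 0.02. The vehicle groups at 6 h, in which these genes were defined, were not among the 5. Over genes with at least 20 counts, the 2 DMSO+vehicle libraries at 6 h differed most of all 12 groups (chi-square per degree of freedom 7.28). The DMSO+IFNg pair at 6 h came next (5.94). DMSO+vehicle at 6 h is the control in the vehicle comparisons below. The cause of neither gap was tested. Leading inducible genes below, CXCL9, CXCL10, UBD, GBP1 and WARS1 among them, were also lower in replicate 1 than in replicate 2. Not every inducible gene was, SOCS1 being an exception. Values of leading genes without each DMSO+IFNg library are therefore given. The library that is left is then assumed to vary like the other groups.

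The promoters of genes on which the results turn are printed first, with GAS letters (TTCNNNGAA) and ISRE letters (GAAANN and then GAAA, N being any base) in capitals. They run 5′ to 3′ on the gene's strand over 300 bases, 250 before the transcription start and 50 after it, from RefSeq on GRCh38.p14. CXCL9 and CXCL10 encode chemokines that draw in T cells bearing CXCR3, UBD encodes the ubiquitin-like modifier FAT10, WARS1 encodes cytosolic tryptophanyl-tRNA synthetase and IRF1 encodes the factor named above.
CXCL9: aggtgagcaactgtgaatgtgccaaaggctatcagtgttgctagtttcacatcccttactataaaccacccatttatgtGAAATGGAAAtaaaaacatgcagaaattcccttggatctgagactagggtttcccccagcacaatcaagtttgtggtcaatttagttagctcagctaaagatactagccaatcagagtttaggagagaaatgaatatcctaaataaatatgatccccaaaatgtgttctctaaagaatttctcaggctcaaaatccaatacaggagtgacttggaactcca
CXCL10: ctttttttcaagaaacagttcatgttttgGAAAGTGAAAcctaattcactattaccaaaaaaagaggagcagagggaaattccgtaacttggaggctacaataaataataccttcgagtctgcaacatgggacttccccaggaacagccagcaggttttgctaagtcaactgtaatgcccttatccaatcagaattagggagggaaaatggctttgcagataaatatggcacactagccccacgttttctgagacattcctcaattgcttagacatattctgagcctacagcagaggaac
UBD: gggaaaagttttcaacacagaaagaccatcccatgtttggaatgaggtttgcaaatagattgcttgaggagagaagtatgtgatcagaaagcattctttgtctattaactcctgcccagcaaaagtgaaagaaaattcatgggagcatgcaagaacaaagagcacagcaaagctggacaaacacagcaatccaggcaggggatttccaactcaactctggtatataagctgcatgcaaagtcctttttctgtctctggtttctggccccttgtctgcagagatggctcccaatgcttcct
WARS1: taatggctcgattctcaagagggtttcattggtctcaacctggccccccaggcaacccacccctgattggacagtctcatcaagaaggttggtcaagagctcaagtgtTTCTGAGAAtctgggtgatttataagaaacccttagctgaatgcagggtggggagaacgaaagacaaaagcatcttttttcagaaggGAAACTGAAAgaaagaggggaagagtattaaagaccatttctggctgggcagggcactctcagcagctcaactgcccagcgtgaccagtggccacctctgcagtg
IRF1: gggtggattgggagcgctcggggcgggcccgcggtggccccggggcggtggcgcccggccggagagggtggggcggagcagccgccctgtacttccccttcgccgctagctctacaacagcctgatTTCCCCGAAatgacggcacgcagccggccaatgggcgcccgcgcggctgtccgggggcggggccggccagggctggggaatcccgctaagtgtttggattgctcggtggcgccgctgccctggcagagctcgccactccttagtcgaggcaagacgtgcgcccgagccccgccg
The CXCL9 window is chr4:76007460-76007759, minus strand, and holds an ISRE that begins 171 bases before the start. The CXCL10 window is chr4:76023448-76023747, minus strand, with an ISRE 221 bases before the start. The UBD window, chr6:29559683-29559982 on the minus strand, holds neither motif. Of the 2 WARS1 windows in the table, the one at chr14:100376278-100376577 holds neither motif and is not printed. The printed one is chr14:100375298-100375597, minus strand, with a GAS 142 bases and an ISRE 55 bases before the start. The IRF1 window is chr5:132490724-132491023, minus strand, with a GAS 124 bases before the start. Searched on both strands, GAS letters stood in 7.66% and ISRE letters in 3.57% of all 35116 windows of that length, so a match is a description of letters and not of a bound site. Among the genes that IFNg raised in the panel, 18% of 122 windows held GAS letters and 28.7% ISRE letters. Windows of the panel genes that fell over 2-fold under BRM014 held either motif in 35.9% of cases, and windows of those that did not in 37.9%.

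CXCL9 (chr4:76001275-76007509, hg38) showed the largest fall among called genes of at least 5 CPM. It had 4.04 and 3.78 CPM in BRM014+IFNg cells, against 62.1 and 224 CPM in DMSO+IFNg cells. The 2 BRM014+IFNg libraries were alike and far below both DMSO+IFNg libraries, which themselves lay far apart. The fall was 36.8-fold (log2 −5.20 ± 0.53, adjusted p = 5.1e-06), leaving 2.71% of the DMSO+IFNg level. It was −5.84 without DMSO+IFNg replicate 1 and −3.99 without replicate 2. In a fit restricted to the 4 compared libraries the call was lost (adjusted p = 0.113).

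The neighbouring CXCL10 (chr4:76021118-76023497) had 3.39 and 3.32 CPM in BRM014+IFNg cells and 31.2 and 101 CPM in DMSO+IFNg cells. Again both BRM014+IFNg libraries sat below both DMSO+IFNg libraries. Its log2 change was −4.31 ± 0.48 (adjusted p = 1.22e-05), or 5.03% of the DMSO+IFNg level, and it was −4.91 and −3.22 without DMSO+IFNg replicate 1 and replicate 2. The adjusted p was 0.122 in the fit of the 4 libraries alone. CXCL11, the remaining CXCR3 ligand, was at 0.293 and 0.261 CPM in BRM014+IFNg cells and 0.237 and 1.02 CPM in DMSO+IFNg cells, too low to be tested.

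UBD (chr6:29555515-29559732) had 13.9 and 14.7 CPM in BRM014+IFNg cells, against 141 and 198 CPM in DMSO+IFNg cells. The groups were well separated and the replicates closer than for the chemokines. UBD fell 11.9-fold (log2 −3.58 ± 0.15, adjusted p = 8.22e-12) to 8.37% of the DMSO+IFNg level, and the fall was −3.80 and −3.31 without DMSO+IFNg replicate 1 and replicate 2. UBD overlaps GABBR1 on the same strand, so reads of the shared part cannot be assigned with certainty.

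All 6 guanylate-binding protein genes that could be tested fell over 2-fold, with a median log2 change of −2.75. These are interferon-induced GTPases that attack membranes of intracellular pathogens. GBP5 had 8.37 and 11.1 CPM in BRM014+IFNg cells and 66.2 and 107 CPM in DMSO+IFNg cells (log2 −3.16 ± 0.24, adjusted p = 1.08e-07). GBP1 had 22.4 and 22.2 CPM in BRM014+IFNg cells and 126 and 251 CPM in DMSO+IFNg cells. Its change was −3.09 ± 0.25 (adjusted p = 4.82e-07), −3.49 without DMSO+IFNg replicate 1 and −2.50 without replicate 2, and its adjusted p was 0.0662 in the fit of the 4 libraries alone. GBP2 and GBP3 fell by 2.81 and 2.69 on the log2 scale. GBP4 fell least, with 118 and 120 CPM in BRM014+IFNg cells against 330 and 498 CPM in DMSO+IFNg cells (log2 −1.80 ± 0.14, adjusted p = 3.09e-07). In each of these genes the 2 groups did not overlap, which held in this direction for 32.3% of all genes tested. All 6 tested genes also fell with BRM014 in vehicle cells, where 20.1% of all genes fell. There 5 fell over 2-fold, and the median was −1.97. The difference between IFNg and vehicle cells was called for 0 of the 6, and for 0.198% of all genes. The genes are close copies of one another, so the authors' counting may have divided reads between them.

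**Figure D1:**
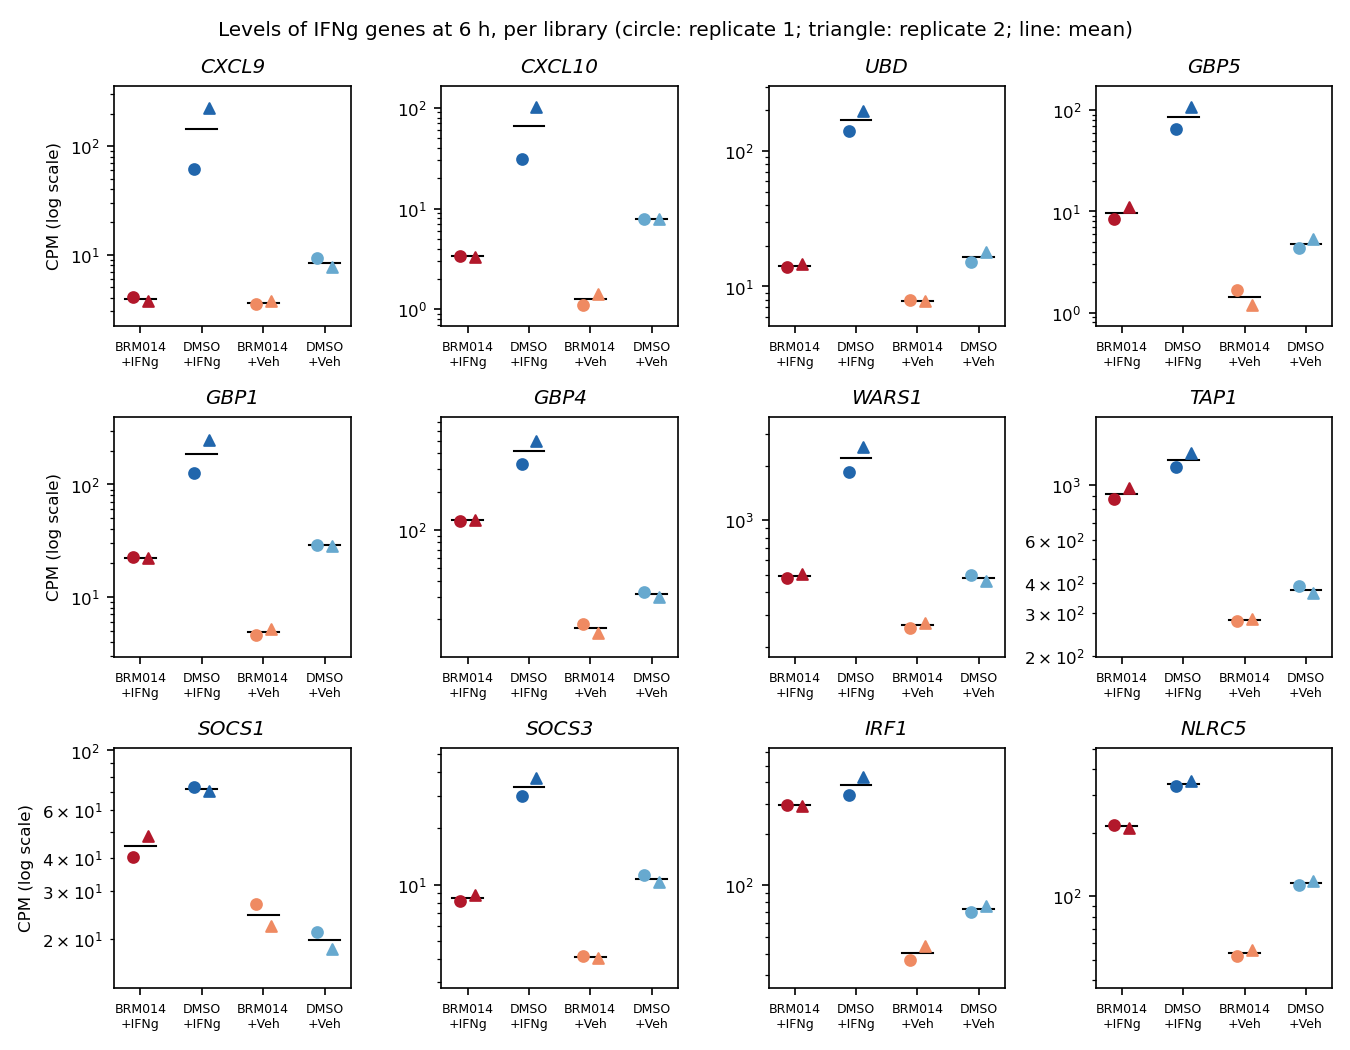
Levels of 12 IFNg-responsive genes (CPM, log axis) in each library at 6 h, from left BRM014+IFNg, DMSO+IFNg, BRM014+vehicle and DMSO+vehicle; circles are replicate 1, triangles replicate 2 and lines group means. CXCL9 in BRM014+IFNg (4.04 and 3.78 CPM) lies below its level in DMSO+vehicle (9.28 and 7.66 CPM), and GBP4 lies between DMSO+IFNg and DMSO+vehicle.

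The wider IFNg programme was read from the panel, whose libraries take no part in the comparison. IFNg raised 130 genes over 2-fold there (0.824% of the panel genes tested) and lowered 22 (0.139%), and 121 of the raised genes could be tested in the pretreatment experiment. Of these, 98 fell in BRM014+IFNg cells, 70 of them over 2-fold and 36 over 4-fold, 1 rose and 22 did not pass. Their median log2 change was −1.15, against 0.01 for all genes. In 110 of the 121 both BRM014+IFNg libraries lay below both DMSO+IFNg libraries, where the groups did not overlap, in either direction, for 64.6% of all genes and in this direction for 32.3%. Of 28 tested genes that IFNg raised over 4-fold in the panel, 25 fell, all over 2-fold.

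HAPLN3, which encodes a hyaluronan-binding link protein and was the gene with the highest panel rise (log2 5.70), had 12.1 and 14.1 CPM in BRM014+IFNg cells against 56.3 and 90.7 CPM in DMSO+IFNg cells (log2 −2.50 ± 0.22, adjusted p = 1.08e-07). WARS1 had 479 and 502 CPM in BRM014+IFNg cells, against 1852 and 2546 CPM in DMSO+IFNg cells, with both inhibitor libraries far below. Its change was −2.17 ± 0.10 (adjusted p = 9.44e-11), leaving 22.3% of the DMSO+IFNg level. BCL6, a transcriptional repressor that acts in germinal centre B cells, was raised by IFNg in the panel but did not pass here. It had 1.93 and 3.32 CPM in BRM014+IFNg cells and 1.74 and 1.97 CPM in DMSO+IFNg cells (log2 0.49, adjusted p = 0.33).

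**Figure D2:**
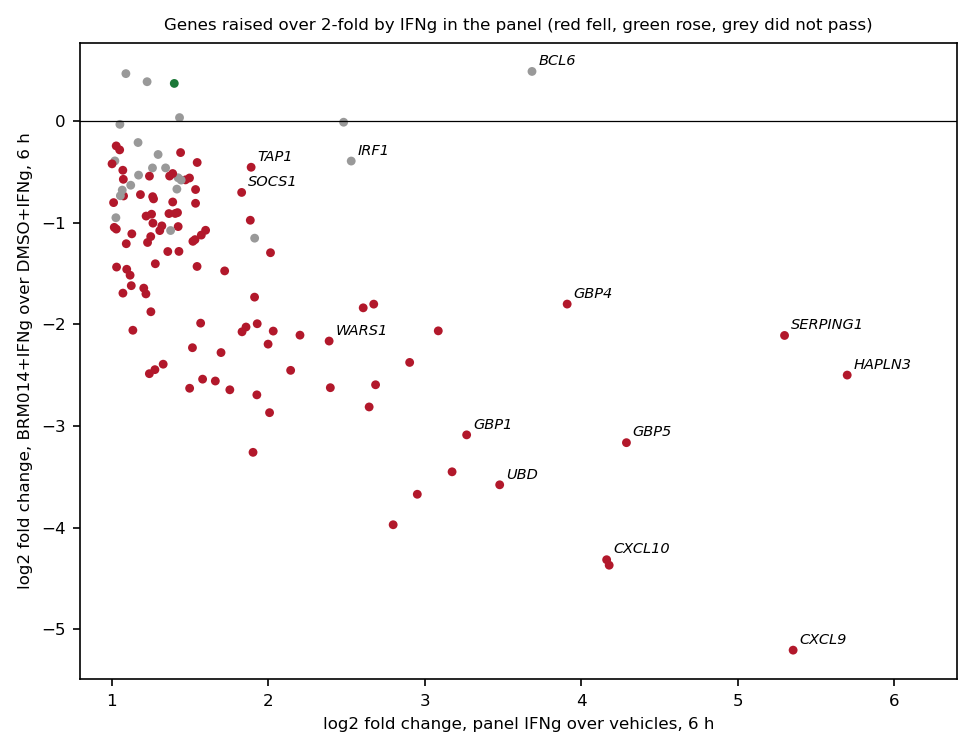
Each point is 1 of the 121 tested genes that IFNg raised over 2-fold in the panel. The x axis is the log2 rise with IFNg in the panel and the y axis the log2 change in BRM014+IFNg against DMSO+IFNg at 6 h; 98 points are genes that fell and 1 is a gene that rose.

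The level reached with the inhibitor was then set against that of cells with neither agent (DMSO+vehicle, 6 h), a comparison that uses the same BRM014+IFNg libraries and in which 17.5% of all genes were higher and 20.2% lower. Of the 121 panel genes, 33 remained higher in BRM014+IFNg cells than in DMSO+vehicle cells, 22 were lower and 66 were not called. Among the 98 that fell under BRM014, 26 were still higher than in DMSO+vehicle cells. GBP4 was one of them, with 118 and 120 CPM in BRM014+IFNg cells against 32.7 and 29.9 CPM in DMSO+vehicle cells (log2 1.93, adjusted p = 4.64e-07). HAPLN3 was another, with 12.1 and 14.1 CPM in BRM014+IFNg cells against 1.80 and 1.75 CPM in DMSO+vehicle cells (log2 2.88, adjusted p = 1.36e-06). Against DMSO+vehicle, a partial rise remained for these genes with the inhibitor. BRM014+vehicle cells were not the baseline here, and 70 of the 121 genes fell with BRM014 in vehicle cells. A gene not called or lower against DMSO+vehicle may therefore still have risen with IFNg under BRM014, which was not tested. GBP1 had 4.60 and 5.16 CPM in BRM014+vehicle cells and 22.4 and 22.2 CPM in BRM014+IFNg cells. For CXCL9 the same groups had 3.50 and 3.74 CPM and 4.04 and 3.78 CPM.

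For 50 of the 98, no difference from DMSO+vehicle was called. WARS1 had 479 and 502 CPM in BRM014+IFNg cells and 497 and 459 CPM in DMSO+vehicle cells (log2 0.04, adjusted p = 0.795). UBD had 13.9 and 14.7 CPM in BRM014+IFNg cells and 15.1 and 18.1 CPM in DMSO+vehicle cells (log2 −0.23, adjusted p = 0.338). In both genes the values of the 2 groups lay close together, and for WARS1 they overlapped. A further 22 fell and were below DMSO+vehicle, among them GBP3, lower by 1.01 on the log2 scale. SOCS3 had 8.19 and 8.73 CPM in BRM014+IFNg cells against 11.2 and 10.3 CPM in DMSO+vehicle cells (log2 −0.34, adjusted p = 0.0412). CXCL9 had 4.04 and 3.78 CPM in BRM014+IFNg cells and 9.28 and 7.66 CPM in DMSO+vehicle cells, below in both libraries but without a call (adjusted p = 0.238). CXCL10, with 3.39 and 3.32 CPM in BRM014+IFNg cells and 7.95 and 7.89 CPM in DMSO+vehicle cells, was not called either (adjusted p = 0.116).

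Genes of the IFNg signalling pathway moved in both directions and by differing amounts. Of 16 tested receptor, kinase, STAT and feedback genes, 8 fell, 1 rose and 7 did not pass, with a median log2 change of −0.23. Among all genes tested 18.7% fell, and in vehicle cells 9 of the 16 fell with BRM014. The receptor chains fell slightly. IFNGR1 had 90.7 and 98.4 CPM in BRM014+IFNg cells and 121 and 125 CPM in DMSO+IFNg cells (log2 −0.38 ± 0.06, adjusted p = 4.93e-06), and IFNGR2 fell by 0.43. JAK2 fell by 0.33 and JAK1 did not pass. STAT2, which acts in the response to type I interferon, had 291 and 257 CPM in BRM014+IFNg cells and 348 and 449 CPM in DMSO+IFNg cells (log2 −0.54 ± 0.12, adjusted p = 0.00335).

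The feedback inhibitors of the pathway differed in size of response. SOCS1, which blocks JAK kinases, had 40.4 and 48.1 CPM in BRM014+IFNg cells and 73.3 and 70.7 CPM in DMSO+IFNg cells (log2 −0.70 ± 0.13, adjusted p = 0.000352), or 61.4% of the DMSO+IFNg level. SOCS3 had 8.19 and 8.73 CPM in BRM014+IFNg cells and 29.8 and 37.3 CPM in DMSO+IFNg cells (log2 −1.99 ± 0.12, adjusted p = 1.83e-14). PTPN6, the phosphatase SHP-1, had 111 and 115 CPM in BRM014+IFNg cells and 384 and 448 CPM in DMSO+IFNg cells (log2 −1.89 ± 0.06, adjusted p = 2.62e-20). In each of the 3 genes all BRM014+IFNg values lay below all DMSO+IFNg values, as in 32.3% of all genes tested. In vehicle cells PTPN6 had 117 and 125 CPM with BRM014 and 499 and 452 CPM with DMSO. SOCS1 overlaps RMI2. WARS1, CIITA, PRDM1, IER3, IFIT3, TNFRSF17, DEPP1, BCL2L14, CEACAM1 and EGR3 are among the named genes that also overlap another tested gene. It is not known whether the authors counted by strand.

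IRF1, chosen for mention after its values were seen, had 294 and 292 CPM in BRM014+IFNg cells and 338 and 432 CPM in DMSO+IFNg cells. Both inhibitor libraries were the lower ones, but the change did not pass (log2 −0.40 ± 0.17, adjusted p = 0.0888). Without DMSO+IFNg replicate 1 it did (−0.56, adjusted p = 0.0382), and without replicate 2 it did not (−0.21, adjusted p = 0.506). In BRM014+IFNg cells IRF1 was above DMSO+vehicle cells (70.3 and 75.5 CPM) by 2.01 on the log2 scale. Of the 9 interferon regulatory factors 6 fell and 3 did not pass, with a median of −0.82. IRF4, a factor of activated B and plasma cells, had 484 and 467 CPM in BRM014+IFNg cells and 926 and 1217 CPM in DMSO+IFNg cells (log2 −1.17 ± 0.09, adjusted p = 5.37e-08). IRF8, which acts in B cells with PU.1, had 209 and 224 CPM in BRM014+IFNg cells and 362 and 439 CPM in DMSO+IFNg cells (log2 −0.89 ± 0.06, adjusted p = 2.43e-13). IRF7, the amplifier of type I interferon genes, had 85.3 and 83.2 CPM in BRM014+IFNg cells and 159 and 165 CPM in DMSO+IFNg cells.

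Genes for antigen presentation on MHC class I fell together but little. Of 20 tested, 18 fell, each by less than 2-fold, and B2M and CALR did not pass; the median log2 change was −0.32. TAP1, which carries peptides into the endoplasmic reticulum, had 878 and 972 CPM in BRM014+IFNg cells and 1186 and 1351 CPM in DMSO+IFNg cells (log2 −0.46 ± 0.06, adjusted p = 5.49e-07). The immunoproteasome subunit PSMB8 had 212 and 216 CPM in BRM014+IFNg cells and 334 and 328 CPM in DMSO+IFNg cells (log2 −0.63 ± 0.05, adjusted p = 7.53e-12). NLRC5, the transactivator of class I genes, had 218 and 210 CPM in BRM014+IFNg cells and 331 and 352 CPM in DMSO+IFNg cells (log2 −0.68 ± 0.07, adjusted p = 2.33e-09). TAP1 and NLRC5 nevertheless stood above DMSO+vehicle cells by 1.31 and 0.89 on the log2 scale. TAP1 and PSMB8 overlap neighbours of the class II region, and HLA genes are near-copies of each other, so their counts are uncertain to that degree.

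Of 18 tested class II genes 5 fell, 2 (CTSS and RFX5) rose and 11 did not pass, with a median of −0.11. Among all genes tested 18.7% fell and 15% rose. CIITA, the class II transactivator, fell most. It had 133 and 138 CPM in BRM014+IFNg cells and 299 and 370 CPM in DMSO+IFNg cells (log2 −1.31 ± 0.07, adjusted p = 1.35e-14). In vehicle cells it had 119 and 134 CPM with BRM014 and 322 and 328 CPM with DMSO, so the gap was there without IFNg. HLA-DRA, a class II chain that presents peptide, did not pass and had 3348 and 3552 CPM in BRM014+IFNg cells and 3809 and 3650 CPM in DMSO+IFNg cells (log2 −0.11, adjusted p = 0.106). IFI30, a lysosomal thiol reductase of antigen processing, had 105 and 110 CPM in BRM014+IFNg cells and 175 and 177 CPM in DMSO+IFNg cells.

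Of 41 antiviral interferon-stimulated genes 36 fell, 19 of them over 2-fold, 1 (IFIH1) rose and 4 did not pass, with a median of −0.90. OAS1, an RNA sensor that activates RNase L, had 45.4 and 49.7 CPM in BRM014+IFNg cells and 167 and 165 CPM in DMSO+IFNg cells (log2 −1.80 ± 0.07, adjusted p = 2.38e-18). MX1, a GTPase that blocks influenza virus, had 479 and 476 CPM in BRM014+IFNg cells and 1134 and 1168 CPM in DMSO+IFNg cells (log2 −1.27 ± 0.05, adjusted p = 4.06e-18). The replicates of both genes were close and the groups far apart. ISG20, an RNA exonuclease, had 56.5 and 56.8 CPM in BRM014+IFNg cells and 136 and 135 CPM in DMSO+IFNg cells. IFIH1, the RNA sensor MDA5, rose slightly, with 180 and 173 CPM in BRM014+IFNg cells and 149 and 153 CPM in DMSO+IFNg cells (log2 0.23 ± 0.05, adjusted p = 0.0014). In vehicle cells 39 of the same 41 genes fell with BRM014, where 20.1% of all genes fell.

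**Figure D3:**
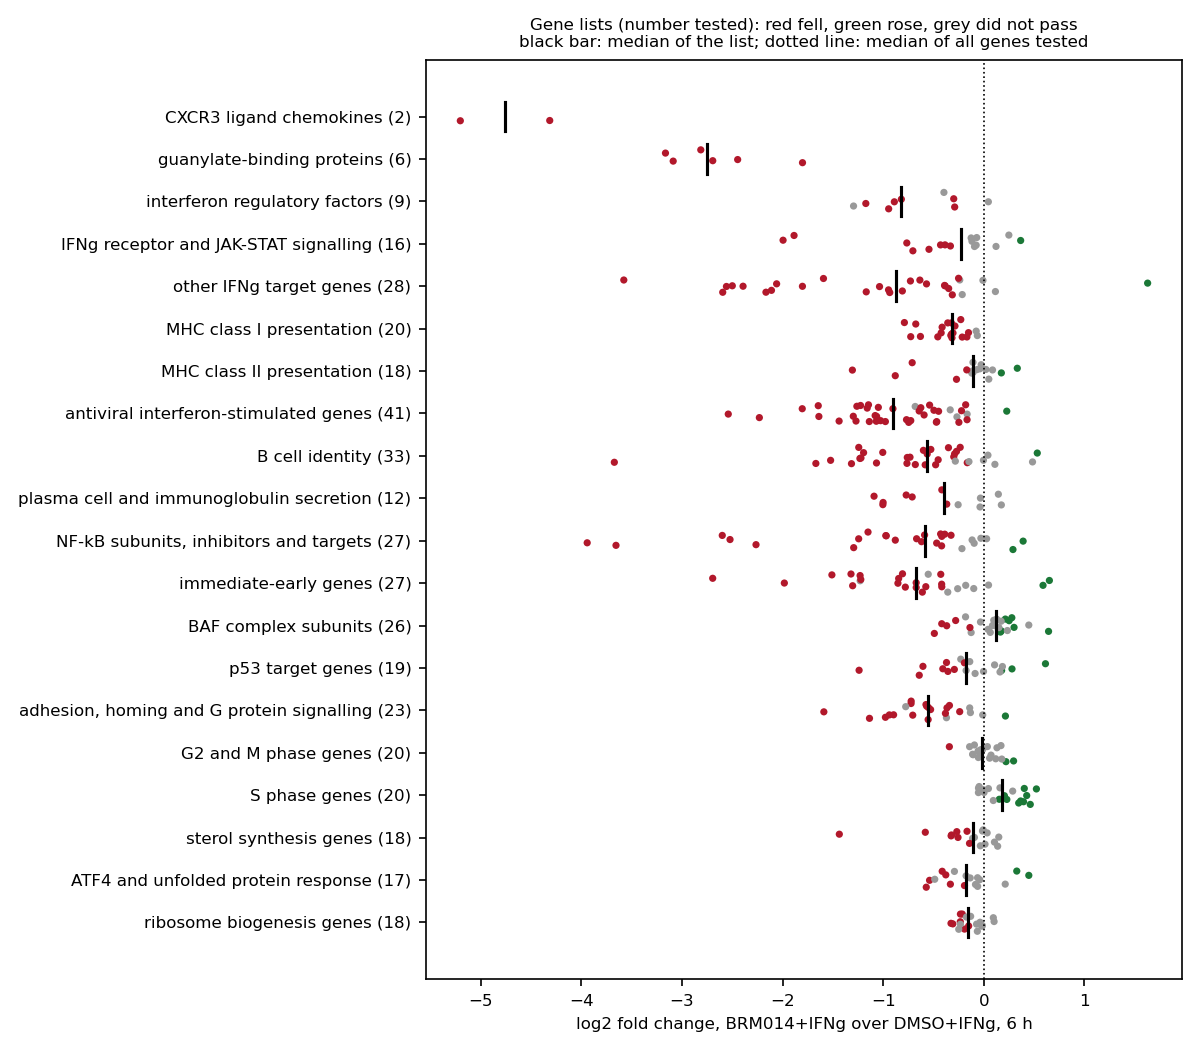
Log2 change in BRM014+IFNg against DMSO+IFNg at 6 h for every tested gene of 20 lists; red points fell, green points rose and grey points did not pass at an adjusted p of 0.05, black bars are list medians and the dotted line is the median of all genes (0.01). Guanylate-binding proteins lie wholly below 0 (median −2.75), and G2 and M phase genes are centred on it (median −0.01).

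The remaining 28 tested IFNg targets, a list of mixed function, counted 23 falls, 1 rise (PIM1) and 4 that did not pass, with a median of −0.87. Beside UBD and WARS1 the list holds CD274, the checkpoint ligand PD-L1, named after its values were seen, with 45.5 and 47.5 CPM in BRM014+IFNg cells and 54.4 and 66.8 CPM in DMSO+IFNg cells (log2 −0.39, adjusted p = 0.000656).

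Genes of the B cell itself fell as well. Of 33 tested B cell identity genes 26 fell, 10 of them over 2-fold, 1 (BLNK) rose and 6 did not pass, with a median of −0.56. Among all genes tested 18.7% fell, 4.64% over 2-fold. The fall was there without IFNg: with BRM014 in vehicle cells 28 of the 33 fell, 12 over 2-fold, and the median was −0.68. CD180, a Toll-like receptor relative on B cells, had 0.936 and 0.912 CPM in BRM014+IFNg cells and 9.0 and 14.4 CPM in DMSO+IFNg cells (log2 −3.67 ± 0.23, adjusted p = 1.13e-13). CD79B, a signalling chain of the B cell receptor, had 20.3 and 17.9 CPM in BRM014+IFNg cells and 51.2 and 58.3 CPM in DMSO+IFNg cells (log2 −1.52 ± 0.10, adjusted p = 8.23e-14). MS4A1, which encodes CD20, had 216 and 205 CPM in BRM014+IFNg cells and 395 and 486 CPM in DMSO+IFNg cells (log2 −1.07 ± 0.07, adjusted p = 4.97e-13). POU2AF1, the B cell coactivator OBF-1, fell by 1.24. In all of these the groups were apart in every library, which held in this direction for 32.3% of all genes tested. BLNK, an adaptor below the B cell receptor, had 202 and 199 CPM in BRM014+IFNg cells and 152 and 126 CPM in DMSO+IFNg cells (log2 0.53 ± 0.06, adjusted p = 3.52e-08). Of 12 plasma cell genes 7 fell and 5 did not pass, and in vehicle cells 6 of the 12 fell and 1 rose with BRM014. PRDM1, the plasma cell regulator BLIMP-1, had 17.7 and 16.9 CPM in BRM014+IFNg cells and 33.8 and 39.5 CPM in DMSO+IFNg cells (log2 −1.09 ± 0.10, adjusted p = 2.33e-10), and TNFRSF17, the receptor BCMA, fell by 1.00.

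Other genes among the 15 largest falls include DEPP1 (log2 −3.80), BCL2L14 (−3.67) and XIRP1 (−3.51). LAX1, an adaptor that limits antigen receptor signalling, had 2.34 and 1.3 CPM in BRM014+IFNg cells and 16.6 and 21.2 CPM in DMSO+IFNg cells (log2 −3.36 ± 0.18). RGS3, which shortens G protein signals, had 3.86 and 4.10 CPM in BRM014+IFNg cells and 26.1 and 31.6 CPM in DMSO+IFNg cells (log2 −2.86 ± 0.13, adjusted p = 5.48e-17). CEACAM1, an inhibitory adhesion receptor, had 0.644 and 1.04 CPM in BRM014+IFNg cells and 9.55 and 11.7 CPM in DMSO+IFNg cells. LY9, a receptor of the SLAM family, had 1.58 and 0.717 CPM in BRM014+IFNg cells and 7.82 and 11.8 CPM in DMSO+IFNg cells. The 15 largest falls were taken only from genes whose groups did not overlap, so the separation of these 4 was fixed by that rule. The same holds for CXCL9, CXCL10, UBD, GBP5, GBP1 and CD180 above.

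TLR9, the endosomal sensor of unmethylated DNA, was at 0.351 and 0 CPM in BRM014+IFNg cells and 4.74 and 6.16 CPM in DMSO+IFNg cells (log2 −4.84 ± 0.80, adjusted p = 0.000415), so its fold rests on few counts. TLR9 also overlaps another tested gene on the same strand, so reads of the shared part cannot be assigned with certainty. NF-kB genes counted 20 falls, 2 rises (BIRC3 and NFKBIB) and 5 that did not pass among 27, with a median of −0.59. In vehicle cells 20 of the 27 fell with BRM014, with a median of −0.66. Of all genes tested, 18.7% fell in IFNg cells and 20.1% in vehicle cells. The chemokine gene CCL3 had 7.78 and 7.43 CPM in BRM014+IFNg cells and 38.9 and 48.1 CPM in DMSO+IFNg cells (log2 −2.52 ± 0.12, adjusted p = 7.88e-17), and its near-copy CCL4 had 0.585 and 0.391 CPM in BRM014+IFNg cells and 5.92 and 9.21 CPM in DMSO+IFNg cells. TRAF1, a signalling adaptor of TNF receptors, had 282 and 290 CPM in BRM014+IFNg cells and 661 and 739 CPM in DMSO+IFNg cells (log2 −1.29 ± 0.05, adjusted p = 5.5e-18). NFKBIA, the inhibitor that NF-kB itself induces, fell by 0.97. LTB, lymphotoxin beta, had 29.0 and 29.6 CPM in BRM014+IFNg cells and 68.5 and 70.1 CPM in DMSO+IFNg cells.

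Among 27 tested immediate-early genes 18 fell, 2 (NR4A2 and NR4A3) rose and 7 did not pass, with a median of −0.67. With BRM014 in vehicle cells 21 of the 27 fell and 1 rose. Of all genes tested, 18.7% fell in IFNg cells and 20.1% in vehicle cells. The calls of the rises of NR4A2 and NR4A3 in IFNg cells depended on which DMSO+IFNg library was left out. EGR3, an early zinc finger factor, had 1.93 and 1.63 CPM in BRM014+IFNg cells and 10.0 and 13.0 CPM in DMSO+IFNg cells (log2 −2.69 ± 0.19, adjusted p = 1.62e-12), and EGR2 fell by 1.32. IER3, an early survival gene, had 8.84 and 9.90 CPM in BRM014+IFNg cells and 33.2 and 40.3 CPM in DMSO+IFNg cells (log2 −1.98 ± 0.12, adjusted p = 3.45e-14). Adhesion, homing and G protein signalling genes counted 17 falls, 1 rise (GNA13) and 5 that did not pass among 23, with a median of −0.55. In vehicle cells 18 of these 23 fell and 1 rose with BRM014. ITGAL, the integrin chain CD11a, had 51.8 and 54.1 CPM in BRM014+IFNg cells and 146 and 172 CPM in DMSO+IFNg cells (log2 −1.59 ± 0.08, adjusted p = 9.88e-13).

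Rises over 2-fold were fewer than falls (221 against 704 genes). None of the 15 largest among genes of at least 5 CPM was a gene that IFNg raised in the panel. Only 0.824% of the panel genes tested were so raised, so 15 genes are too few to read this. PIM1, a serine/threonine kinase that STAT factors are known to induce, had 56.7 and 58.6 CPM in BRM014+IFNg cells and 22.6 and 15.3 CPM in DMSO+IFNg cells, a 3.09-fold rise (log2 1.63 ± 0.10, adjusted p = 2.71e-13). CD1C, a lipid antigen-presenting molecule of B cells, had 50.3 and 51.9 CPM in BRM014+IFNg cells and 22.2 and 13.2 CPM in DMSO+IFNg cells (log2 1.56 ± 0.13, adjusted p = 2.36e-09). ZNF341, a zinc finger factor known to activate STAT3 transcription, had 27.4 and 27.4 CPM in BRM014+IFNg cells and 12 and 6.28 CPM in DMSO+IFNg cells (log2 1.62 ± 0.18, adjusted p = 1.84e-07). All 3 were apart in every library, which the rule for the 15 largest rises required of its members. Each was higher in DMSO+IFNg replicate 1 than in replicate 2. ZMYM1, a zinc finger gene, had 10.1 and 7.88 CPM in BRM014+IFNg cells and 1.82 and 1.62 CPM in DMSO+IFNg cells, a log2 change of 2.40. RPPH1, the RNA of RNase P, had 10.0 and 2.28 CPM in BRM014+IFNg cells against 0.711 and 0.897 CPM in DMSO+IFNg cells. Its inhibitor libraries disagreed, and its call (adjusted p = 0.0116) was lost in 4 alternatives.

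**Figure D4:**
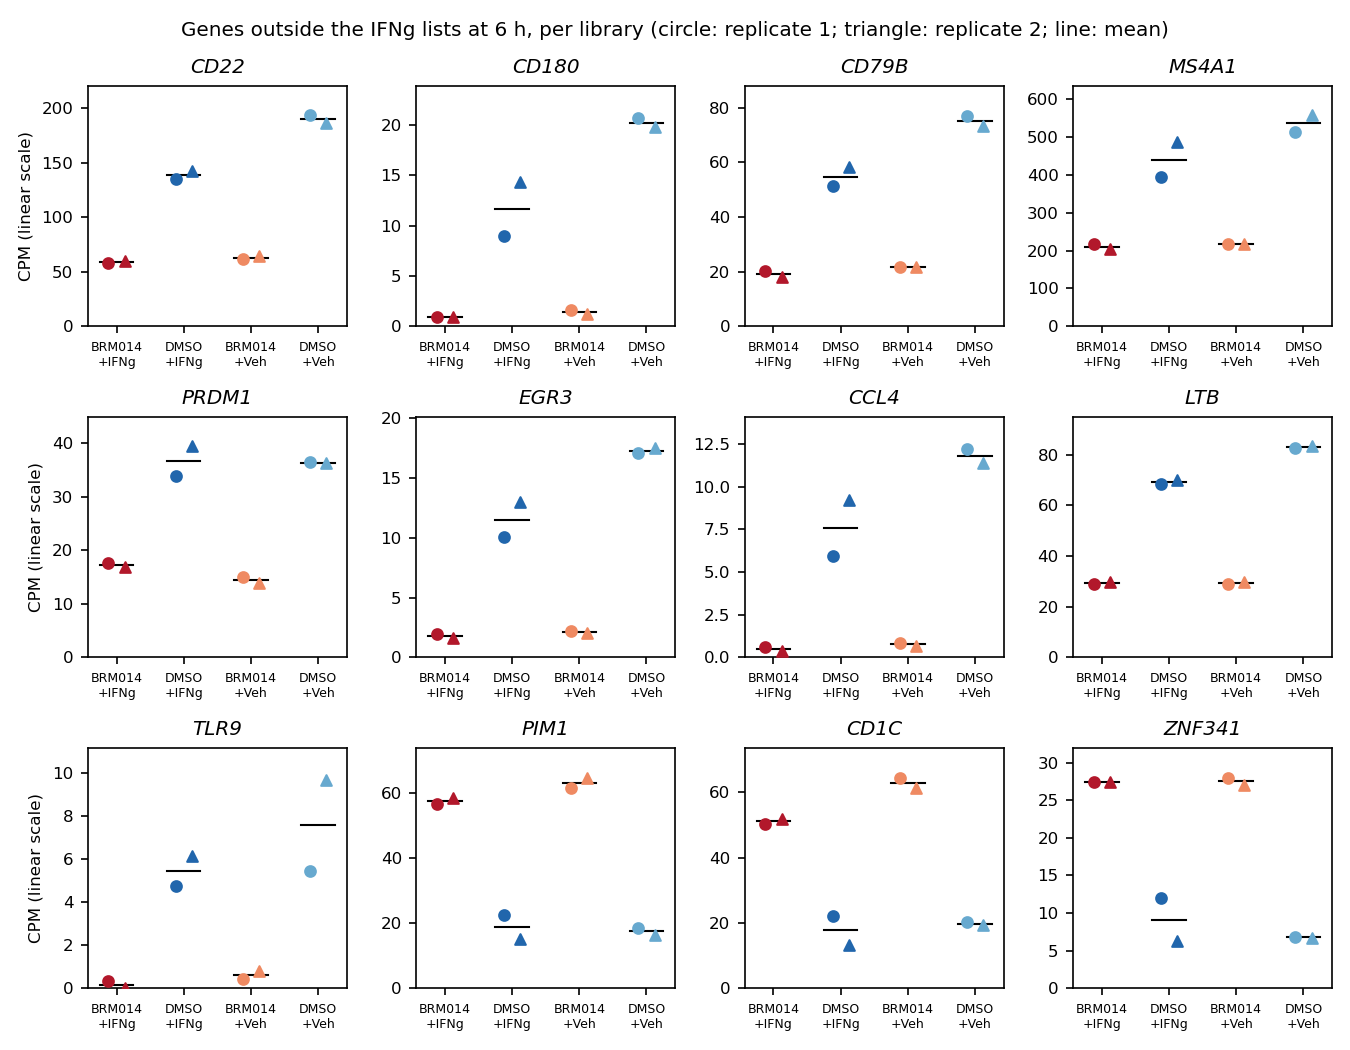
Levels (CPM, linear axes from 0) in each library at 6 h of 12 genes outside the IFNg programme or opposite to it, from left BRM014+IFNg, DMSO+IFNg, BRM014+vehicle and DMSO+vehicle; circles are replicate 1, triangles replicate 2 and lines group means. CD22 (58.1 and 60.2 CPM in BRM014+IFNg, 135 and 142 CPM in DMSO+IFNg) is low in both BRM014 groups, and PIM1 (56.7 and 58.6 CPM in BRM014+IFNg, 22.6 and 15.3 CPM in DMSO+IFNg) is high in them.

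Genes of the cell cycle and of housekeeping programmes moved little. Among all genes tested 15% rose and 18.7% fell. Of 20 S phase genes 10 rose and 10 did not pass, with a median of 0.18, and 12 rose without DMSO+IFNg replicate 1 but 5 without replicate 2. E2F1, the factor that drives entry into S phase, had 55.7 and 59.3 CPM in BRM014+IFNg cells and 42.6 and 37.7 CPM in DMSO+IFNg cells (log2 0.52 ± 0.08, adjusted p = 2.61e-06). Of 20 G2 and M phase genes 1 (KIF20A) fell, 2 (CDK1 and KIF11) rose and 17 did not pass, with a median of −0.01. CDKN1A, the cell cycle inhibitor p21, had 133 and 143 CPM in BRM014+IFNg cells and 314 and 337 CPM in DMSO+IFNg cells (log2 −1.24 ± 0.06, adjusted p = 4.1e-16). The other p53 targets did not share one direction: with CDKN1A 8 fell, 3 rose and 8 did not pass, with a median of −0.18. Sterol synthesis genes counted 8 falls and 10 that did not pass, but 4 falls and 4 rises without DMSO+IFNg replicate 1. INSIG1, which holds the sterol sensor in the endoplasmic reticulum, had 63.6 and 72.1 CPM in BRM014+IFNg cells and 95.5 and 107 CPM in DMSO+IFNg cells, a log2 change of −0.58. Of 17 genes of the ATF4 and unfolded protein response 6 fell, 2 rose and 9 did not pass, and of 18 ribosome biogenesis genes 7 fell and 11 did not pass.

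BAF subunit transcripts themselves moved by small amounts in both directions, with 7 rises, 5 falls and 14 that did not pass among 26. The falls were 19.2% of these genes, against 18.7% of all genes tested, of which 15% rose. In vehicle cells 11 of the 26 rose and 4 fell with BRM014. With so few genes the counts are not read as a trait of the set. SMARCA4 had 264 and 259 CPM in BRM014+IFNg cells and 229 and 210 CPM in DMSO+IFNg cells (log2 0.25 ± 0.05, adjusted p = 0.000304). SMARCA2 had 532 and 550 CPM in BRM014+IFNg cells and 703 and 743 CPM in DMSO+IFNg cells (log2 −0.42 ± 0.05, adjusted p = 1.11e-08). The 2 ATPase transcripts thus moved in opposite directions, each without overlap between groups, as for 64.6% of all genes tested.

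Most of the effect was also measured in vehicle cells, whose 4 libraries are separate ones. There 18.4% of all genes rose and 20.1% fell with BRM014. Of the 2834 genes that fell in IFNg cells, 2272 (80.2%, and 74.5% of the 3051 that fell in vehicle cells) fell in both, and 1704 of the 2275 that rose (74.9%, and 61.0% of the vehicle rises) rose in both, with 5 and 3 genes called in opposite directions. Among the panel IFNg genes 70 of 121 fell and 2 rose with BRM014 in vehicle cells. CXCL9 had 3.50 and 3.74 CPM in BRM014+vehicle cells and 9.28 and 7.66 CPM in DMSO+vehicle cells, so that adding IFNg to BRM014-treated cells left it within 1 CPM of its level in BRM014+vehicle cells. GBP4 had 18.4 and 15.5 CPM in BRM014+vehicle cells, well below the 118 and 120 CPM of BRM014+IFNg cells.

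The difference between the BRM014 effect in IFNg cells and in vehicle cells was tested directly. It was called for 30 genes (0.198% of those tested), 23 (0.151%) more negative and 7 (0.0461%) more positive in IFNg cells. Among called genes of at least 5 CPM, UBD had the lowest difference, −2.48 (adjusted p = 0.000291), from a log2 change of −3.58 in IFNg cells and −1.10 in vehicle cells, and WARS1 differed by −1.30 (adjusted p = 0.000391), from −2.17 and −0.86. Restricted to the libraries of the 4 groups compared, neither was called (adjusted p = 0.0717 and 0.304). ZNF697, a zinc finger gene that IFNg raised in the panel, differed by −1.79 (adjusted p = 0.000117) in the fit and kept its call under all 13 alternatives. It had 6.15 and 6.45 CPM in BRM014+IFNg cells and 16.7 and 17.3 CPM in DMSO+IFNg cells, against 6.35 and 6.86 CPM in BRM014+vehicle cells and 4.21 and 5.92 CPM in DMSO+vehicle cells. BPGM, an enzyme of glycolysis best known from red blood cells, differed by −1.12, with 28.0 and 24.6 CPM in BRM014+IFNg cells, 43.9 and 54.8 CPM in DMSO+IFNg cells, 25.3 and 23.8 CPM in BRM014+vehicle cells and 20.2 and 22.1 CPM in DMSO+vehicle cells. SOCS1 differed by −1.03 (adjusted p = 0.0467, lost in 5 of 13 alternatives), falling by 0.70 in IFNg cells against a change of 0.32 in vehicle cells.

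Among the 7 positive differences IFIT3 had 0.63 and kept its call under all 13 alternatives. IFIT3, an antiviral protein that stabilises IFIT1, had 108 and 113 CPM in BRM014+IFNg cells and 220 and 235 CPM in DMSO+IFNg cells, a log2 change of −1.05, against 36.6 and 41.8 CPM in BRM014+vehicle cells and 126 and 126 CPM in DMSO+vehicle cells, a change of −1.68. OAS2 (0.51) and CD22 (0.36), an inhibitory co-receptor of B cells, likewise fell in both, less in IFNg cells, but lost the call in 4 and 9 alternatives. CXCL9 had a difference of −4.00 that was not called (adjusted p = 0.202). It was −4.63 without DMSO+IFNg replicate 1 and −2.78 without replicate 2. Such fits leave 1 library in that group and drop the spread between its 2 libraries, so a call from them would not count as support. GBP2 and GBP4 were not called with both libraries either (adjusted p = 0.145 and 0.25). The GBP2 difference was −1.88 without replicate 1 and −1.08 without replicate 2. CXCL10 and GBP1 were also not called with both (adjusted p = 0.726 and 0.830). Their differences were −2.28 and −0.94 without replicate 1, and −0.58 and 0.05 without replicate 2.

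**Figure D5:**
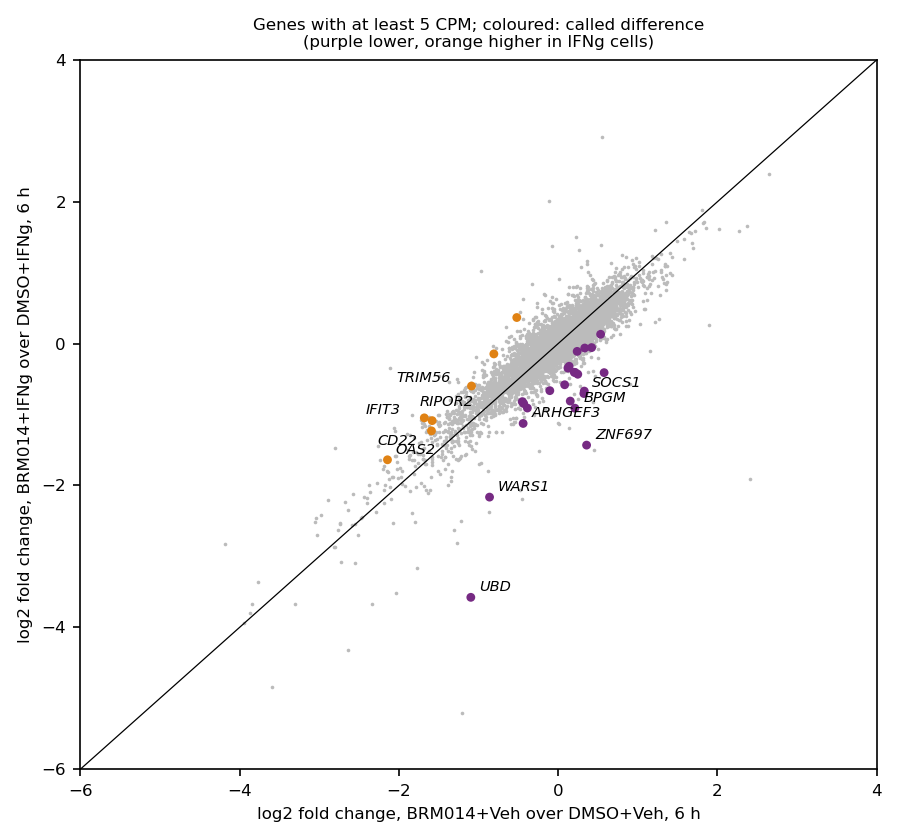
Log2 effect of BRM014 at 6 h in vehicle cells (x axis) and in IFNg cells (y axis) for 10616 genes of at least 5 CPM; the line marks equal effects and 2 genes fall outside the axes. Coloured points are the 30 genes with a called difference, 23 below the line in purple and 7 above it in orange; UBD and IFIT3 are among them.

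Against Dex-stimulated cells at 6 h, 232 differences (1.53% of genes) were negative and 376 (2.48%) positive, 4% in all. CXCL9 (−4.63, adjusted p = 0.0258, lost in 7 of 13 alternatives), UBD (−2.62), GBP5 (−2.43) and the complement gene C4B (−2.09, a near-copy of C4A) were the lowest among genes of at least 5 CPM. The falls of these IFNg genes were thus larger with IFNg than with Dex. In DMSO+Dex cells, without IFNg, CXCL9 had only 4.55 and 5.11 CPM and UBD 16.3 and 13.1 CPM. GBP5 had 3.11 and 1.78 CPM there, and C4B 4.26 and 3.78 CPM. Whether these low levels limited the fall with Dex was not tested. After 1 h of IFNg the BRM014 effect was smaller: 94 genes (0.619%) rose and 240 (1.58%) fell. The 1 h and 6 h groups differ in the time since BRM014 was first given as well as in the time with IFNg. The 2 cannot be told apart here. Of those 240, 218 (90.8%, and 7.69% of the 6 h falls) also fell at 6 h. CXCL9 at 1 h had 7.25 and 6.96 CPM in BRM014+IFNg cells and 20.1 and 22.3 CPM in DMSO+IFNg cells, a change that did not pass (log2 −1.58 ± 0.53, adjusted p = 0.253). CXCL10 at 1 h had 6.33 and 7.69 CPM in BRM014+IFNg cells and 35.5 and 35.2 CPM in DMSO+IFNg cells, and fell (log2 −2.33 ± 0.43, adjusted p = 0.011). The libraries of the 2 groups did not overlap in either gene, and the share of all genes without overlap at 1 h was not computed. The change in effect between the times was called for 1484 genes (9.77%) as more negative at 6 h and for 810 (5.33%) as more positive (15.1% in all), among them CXCL9 (−3.63) and TLR9 (−3.61) below and CD1C (1.49) above. Of the 41 antiviral genes 8 fell at 1 h, and for 28 the effect was called more negative at 6 h.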

How the data were processed

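Total RNA of GM12878 cells was converted to stranded polyA libraries and sequenced as paired 150 bp reads, per the labels' protocols. STAR, RSEM and the build hg38 are named, without versions, in the submitters' processing notes; the labels do not name the annotation or the strand setting of the counting. The authors deposited RSEM expected counts per gene, of which 4.15% to 4.74% in each pretreatment or panel library were not whole. TPM values, which scale for transcript length, were deposited by the authors beside them and are not tested here. Of 59526 identifiers, 58780 were Ensembl genes and 746 others held 0 counts.

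Expected counts were rounded and tested with edgeR 4.0.16 (R 4.3.3), by the robust quasi-likelihood test with TMM scaling (factors 0.966 to 1.06) and edgeR's expression filter, over 24 libraries in 12 groups (15183 genes, 12 residual degrees of freedom, biological coefficient of variation 0.0490). A panel of 15 libraries (15775 genes) was fitted alone. Standard errors are the log2 change divided by the root of the F statistic. Depth was 12.9 to 22.3 M counts in the pretreatment and 14.2 to 22.9 M in the panel libraries. Replicates differed by more than counting noise (chi-square per degree of freedom 2.52 to 7.28, highest in DMSO+vehicle at 6 h). The models were tested on simulated data. DESeq2 1.42.0, DESeq2 size factors, no filter, a fit of the compared groups alone, a replicate block and leaving out each library were tried.

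Named genes are the 15 largest rises and falls (called, at least 5 CPM, groups apart), the 4 members of each list with the smallest adjusted p, the 20 largest panel rises, the ATPases and markers, and the extreme differences between conditions. IRF1, CD274, HLA-DRA, IFIH1, BLNK, IFNGR1, IFNGR2, JAK1, JAK2, STAT2 and other genes given to account for a small count fall outside that rule and were named after their values were seen. Some genes of these lists are not reported here. The members and gene lists were chosen with earlier results of these data known.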

Additional observations from a re-analysis of the deposited data

Results flagged for a closer look

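The results below are differences of the BRM014 effect between conditions that passed a test of the difference itself, edgeR's interaction contrast with an adjusted p below 0.05; each value is a difference of log2 changes, no explanation is weighed, and the genes named are the extremes among called genes of at least 5 CPM. Between IFNg and vehicle cells at 6 h, 23 genes had a more negative effect in IFNg cells, led by UBD (−2.48), ZNF697 (−1.79), WARS1 (−1.30), BPGM (−1.12), SOCS1 (−1.03), XKR8 (−1.0), RHOBTB3 (−0.99) and RNF24 (−0.96). In the other direction, 7 genes had a more positive effect in IFNg cells, among them TRANK1 (0.66), IFIT3 (0.63), OAS2 (0.51), RIPOR2 (0.50), TRIM56 (0.49) and CD22 (0.36). Of these named genes ZNF697, BPGM, RNF24 and IFIT3 kept the call under all 13 alternatives, and the rest lost it under at least 1.

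Between IFNg and Dex cells at 6 h, 232 genes were more negative in IFNg cells, with CXCL9 (−4.63), UBD (−2.62), GBP5 (−2.43) and C4B (−2.09) lowest, and 376 were more positive, with LGR4 (3.35), VSTM2L (2.85), ATP6V1G2-DDX39B (2.77) and NHSL1 (2.58) highest. The 6 h and 1 h IFNg groups also differ in the time since BRM014 was first given. Between them, 1484 genes were more negative at 6 h, with CXCL9 (−3.63), TLR9 (−3.61), CEACAM1 (−3.46) and XIRP1 (−3.45) lowest. At 6 h 810 genes were more positive, with ZMYM1 (1.86), MFSD13A (1.83), BEND6 (1.80) and CD1C (1.49) highest.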

How the results depend on the processing

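Of 125 named genes called in BRM014+IFNg against DMSO+IFNg, 109 kept call and sign under every alternative run, 16 lost the call under at least 1, and 0 changed sign. With DESeq2's Wald test, 1536 genes rose and 2494 fell, and 109 rose over 2-fold; in the fit of the 4 libraries alone 1722 rose and 2294 fell. The difference from vehicle cells depended most on the settings. It was called for 84 genes with no filter (37 higher, 47 lower, 3 and 12 of them over 2-fold), for 50 with DESeq2 (16 higher; 3 higher and 9 lower over 2-fold) and for 11 with only the compared groups (3 higher, 8 lower). The difference from Dex gave 21 genes lower over 2-fold with only the compared groups, and the difference from 1 h gave 423 higher, 48 over 2-fold, with DESeq2. Restricting the panel genes to rises over 4-fold gave 28 tested, 25 fallen, 0 risen and a median of −2.48, and 2 rose when either panel vehicle alone was the control.

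Leaving out 1 library at a time gave 3150 to 4806 changed genes (1196 to 2059 higher, 1954 to 2747 lower, 110 to 293 and 480 to 770 over 2-fold), the fewest without DMSO+IFNg replicate 2. The difference from vehicle then spanned 10 to 163 genes (3 to 106 higher, 7 to 57 lower, 0 to 9 and 4 to 14 over 2-fold), from Dex 421 to 702 (255 to 487 higher, 119 to 278 lower, 54 to 102 and 19 to 54 over 2-fold) and from 1 h 1411 to 2621 (393 to 950 higher, 1018 to 1671 lower, 54 to 156 and 249 to 433 over 2-fold). Of the panel genes 82 to 94 of 123 to 125 fell (66.7% to 75.2%), 1 rose, and the median was −1.35 to −1.02. A replicate block gave 2302 higher and 2848 lower genes and changed no count by over 1.5 times. Same-numbered libraries of the 2 groups deviated with a correlation of −0.032, so no shared deviation by number was seen. The labels do not say whether they were prepared as pairs. Depth limits genes near 1 CPM such as TLR9 and CXCL11.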

Other observations

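Genes that IFNg lowered over 2-fold in the panel did not share a direction under BRM014. Of 22 such genes 20 could be tested, and in BRM014+IFNg cells 5 fell (25%), 2 rose and 13 did not pass. Among all genes 18.7% fell and 15% rose, so with 20 genes these counts are not read as a trait of the set. CD1D, which presents lipids to natural killer T cells, had 5.50 and 3.45 CPM in BRM014+IFNg cells and 1.34 and 2.33 CPM in DMSO+IFNg cells, a log2 change of 1.25 (edgeR adjusted p = 0.0011). BEND6 had 6.55 and 6.71 CPM in BRM014+IFNg cells and 3.16 and 1.08 CPM in DMSO+IFNg cells, a log2 change of 1.71. C5AR1, the receptor for complement fragment C5a, had 0.117 and 0.195 CPM in BRM014+IFNg cells and 1.03 and 0.419 CPM in DMSO+IFNg cells, and its call was lost without DMSO+IFNg replicate 1 (adjusted p = 0.2). These names were chosen after their values were seen.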
